A study of Homo sapiens with 2 samples.

Results

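MALAT1 and NEAT1 are a pair of nuclear long non-coding RNAs, and all of their transcript rows were followed in 2 RNA libraries of 95D, a cell line of human lung cancer labelled wild type. One library came from cells kept for 48 h in glutamine-free DMEM and the other from cells kept for 48 h in glucose-free DMEM, in both cases with dialysed serum and after 24 h in complete medium. Members were the rows whose name column read MALAT1 or NEAT1 and whose value was a number, which gave 2 of the 9253 names with a number. MALAT1 had 17 listed rows, of which 3 held a number, and NEAT1 had 9 listed rows, of which 4 held a number. Neither label says whether a library was pulled down with the ALKBH5 antibody that the series describes or was its input, and no library from cells in complete medium is analysed here. Each condition had 1 library, so the differences lack a check by replicates and p-values are not given.

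MALAT1 gathers at nuclear speckles, the nuclear bodies that store splicing factors, and it carries m6A marks, the RNA modification that ALKBH5 removes. Its mature end is not polyadenylated in the usual way: RNase P cuts it ahead of a small tRNA-like RNA, and a triple helix protects the new end. NEAT1 is the scaffold of paraspeckles, nuclear bodies built from RNA-binding proteins, and it is made as a short polyadenylated form and a long form that ends like MALAT1. Both are abundant in many tumour lines.

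Per RefSeq, assembly GRCh38.p14, both genes lie on chromosome 11. NEAT1 (gene 283131) spans chr11:65422798-65445540, a length of 22743 bases with 2 RefSeq transcripts, and MALAT1 (gene 378938) spans chr11:65497738-65506516, a length of 8779 bases with 3 RefSeq transcripts. The gap between them is 52197 bases. The files give rows no transcript identifier or coordinates, so no row can be tied to one of these transcripts. RefSeq gives MALAT1 2 start windows of 300 bases on the plus strand, each running from 250 bases before a start through the first 50 bases of the transcript, with the starts 1307 bases apart. They are shown because rows of one name can differ in where transcription begins. Capitals mark matches on either strand to a TATA box, TATAAA, or a GC box, GGGCGG.
MALAT1 upstream start, chr11:65497488-65497787: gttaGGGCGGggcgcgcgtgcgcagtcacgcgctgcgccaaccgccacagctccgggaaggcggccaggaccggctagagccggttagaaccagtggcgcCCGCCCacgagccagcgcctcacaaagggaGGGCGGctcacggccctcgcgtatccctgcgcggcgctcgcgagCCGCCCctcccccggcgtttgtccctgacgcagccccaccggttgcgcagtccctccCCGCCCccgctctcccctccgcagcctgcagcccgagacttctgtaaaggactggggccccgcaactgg
MALAT1 downstream start, chr11:65498795-65499094: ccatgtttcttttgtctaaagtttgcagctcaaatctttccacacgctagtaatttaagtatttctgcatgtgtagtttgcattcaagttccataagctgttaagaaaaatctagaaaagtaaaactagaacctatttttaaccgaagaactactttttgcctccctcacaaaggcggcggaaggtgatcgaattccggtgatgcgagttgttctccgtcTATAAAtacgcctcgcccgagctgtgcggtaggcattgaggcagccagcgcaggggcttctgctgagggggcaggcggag
The upstream window held 5 GC box matches, was 73.7% G or C and had no TATA box match. The downstream window held 1 TATA box match, its first base 30 bases before the start, was 46.0% G or C and had no GC box match. Of 35116 windows of this length in the table, 11.5% held the TATA box letters and 45.0% the GC box letters. A match describes the letters and is not evidence of a used start.

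The deposited values climb in equal steps within a library, and dividing by the step recovered whole reads, 1442570 in the glutamine-deprived library and 42827 in the glucose-deprived library. Rows above 0 numbered 18564 in the glutamine-deprived library and 474 in the glucose-deprived library, out of 18663 rows with a number. Among rows above 0 the median value was 13.4 (quartiles 5.52 and 31.6) in the glutamine-deprived library and 88.5 (quartiles 23.1 and 131) in the glucose-deprived library. At the level of names, the glutamine-deprived library had 9211 of 9253 above 0 and the glucose-deprived library 4.25%, with MALAT1 and NEAT1 above 0 in both. Of the epithelial markers EPCAM, CDH1, KRT7, KRT8, KRT18 and KRT19, 4 had a number, all 4 above 0 in the glutamine-deprived library and KRT8 also above 0 in the glucose-deprived library. Of the mesenchymal and fibroblast markers, 3 of 6 had a number, all 3 above 0 in the glutamine-deprived library and FN1 also in the other. Since nearly all names with a number were above 0 in the glutamine-deprived library, being above 0 there adds little to having a number. The epithelial values summed to 270.4 in the glutamine-deprived library and 199.8 in the glucose-deprived library, and the mesenchymal and fibroblast values to 1042 and 344 in the same order. No immune, endothelial or red blood cell marker on the lists had a number. Intervals are at 95% and hold counting error alone, because copies made by PCR were not told apart by molecular identifiers.

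Over the 3 MALAT1 rows with a number, of 17 listed, nearly all of the signal lay on 1 row. That row stood at a value of 68505 in the glutamine-deprived library and 1308 in the glucose-deprived library, or 86599 and 1035 recovered reads. It held 99.9% of the name's reads (interval by Wilson's method 99.87 to 99.91%) in the glutamine-deprived library and 100% (99.6 to 100%) in the glucose-deprived library. The next MALAT1 row had a value of 68.8, or 87 reads, in the glutamine-deprived library, where the glucose-deprived library listed 0. The last had 3.94, or 5 reads, in the glutamine-deprived library and again a listed 0 in the other. Of the 3 rows, then, all were above 0 in the glutamine-deprived library and 1 in the glucose-deprived library.

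NEAT1 was spread in the same way over its 4 rows with a number, of 9 listed. Its leading row stood at a value of 25393 in the glutamine-deprived library and 506 in the glucose-deprived library, or 32100 and 400 reads. It held 99.8% of the name's reads (99.72 to 99.82%) in the glutamine-deprived library and 100% (99.05 to 100%) in the glucose-deprived library. The other 3 NEAT1 rows had values of 33.2, 17.4 and 6.31 in the glutamine-deprived library, which are 42, 22 and 8 reads, whereas the glucose-deprived library listed all 3 at 0. Weighted by reads, the effective number of rows in the glutamine-deprived library was 1.00 for both names. For each name the leading row was the same row in both libraries.

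The zeros on the minor rows in the glucose-deprived library have to be read against its depth. At that split, the 1035 MALAT1 reads would have placed 1.04 reads on the next row and 0.060 on the last. The 400 NEAT1 reads would have placed 0.52, 0.27 and 0.099 reads on its 3 minor rows. By counting error alone, a count of 0 allows up to 3 reads, which is 0.290% of the MALAT1 reads and 0.75% of the NEAT1 reads there. Only 474 of the 18663 rows with a number were above 0 in that library. Listed zeros there also fell on names with many reads in the other library. UCHL1, chosen after its value was seen, had 4035 reads in the glutamine-deprived library and a listed 0 in the glucose-deprived library. The ratio of recovered reads between the libraries was 33.7. Whether a listed 0 there can stand for more than 3 reads was not tested, so these limits hold for counting error alone. A minor row's share in the glucose-deprived library could thus have differed from that in the other, at least up to these limits, without being seen. Although small beside the leading row, the next MALAT1 row ranked 1936 among the 18564 rows above 0 in the glutamine-deprived library, within the upper 10.4% of them. The next NEAT1 row ranked 4317.

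**Figure D1:**
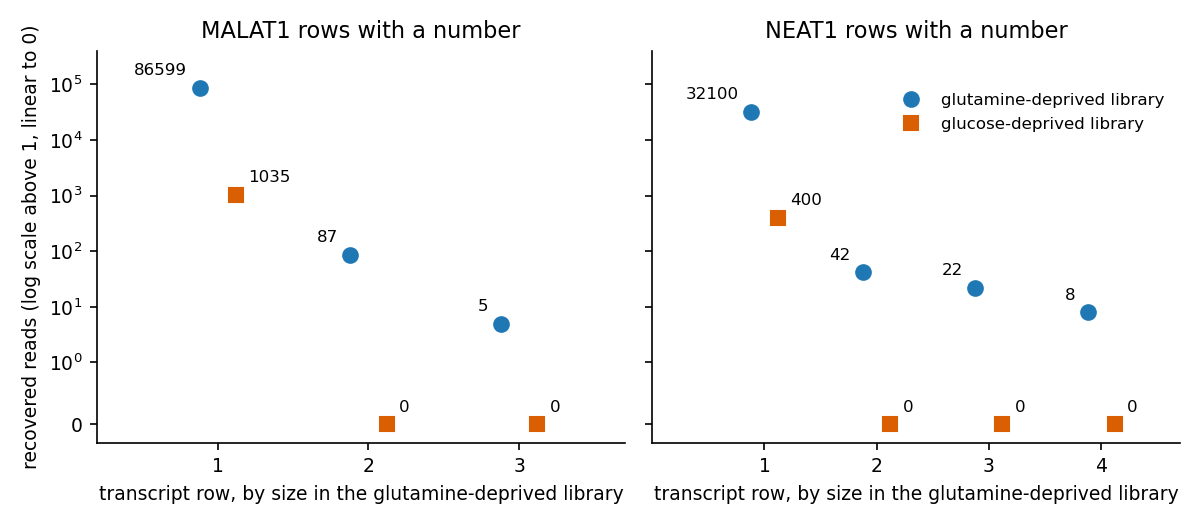
Recovered reads (log scale above 1, linear to 0) of each MALAT1 row (left panel) and NEAT1 row (right panel) with a number, ordered by size, with the glutamine-deprived library as circles and the glucose-deprived library as squares. A single row of each name carries 86599 and 1035 reads for MALAT1 and 32100 and 400 reads for NEAT1, and all other rows are at 0 in the glucose-deprived library.

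Few names in the glutamine-deprived library were so concentrated on 1 row. Among the 2091 names with 3 or more rows with a number, the largest row held a median of 53.1% of the reads (quartiles 43.5 and 66.9%). It held 99% or more for 3 names, or 0.143% of them: MALAT1, NEAT1 and DNAH14. DNAH14, a dynein heavy chain gene, had all 70 of its glutamine-deprived reads on 1 of 5 rows and 25.0% of its 68 glucose-deprived reads on its largest row there. Of the 61 such names with at least 1000 reads, UCHL1 came next after the pair, with 97.1% of 4035 reads on its largest row, and OGT after it, with 88.7% of 4697; both were chosen after their values were seen. The names with the most rows with a number were spread far more widely. More rows leave more room for spread, and neither these shares nor the median above were matched by number of rows. GAS5, a host of small nucleolar RNAs, had 29.4% of its glutamine-deprived reads on the largest of 53 rows, SNHG17 10.9% on the largest of 43, and PVT1, a long non-coding RNA beside MYC, 15.8% on the largest of 33.

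In the glucose-deprived library a single row above 0 was the usual case. Of the 209 names with 3 or more rows that were above 0 in both libraries, 167, or 79.9% (74.0 to 84.8%), had 1 row above 0 there. The 100% on 1 row of MALAT1 and NEAT1 in that library is thus shared with most names. Keeping the same largest row in both libraries was less usual, at 75 of these 209 names, or 35.9% (29.7 to 42.6%). SNHG5 and RPLP0, the names with the most rows above 0 in the glucose-deprived library at 6 each, had 76.0% and 73.9% of their glutamine-deprived reads and 94.0% and 86.5% of their glucose-deprived reads on the largest row. RPL13A followed with 5 rows above 0, and 34.0% and 98.1% on the largest row.

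**Figure D2:**
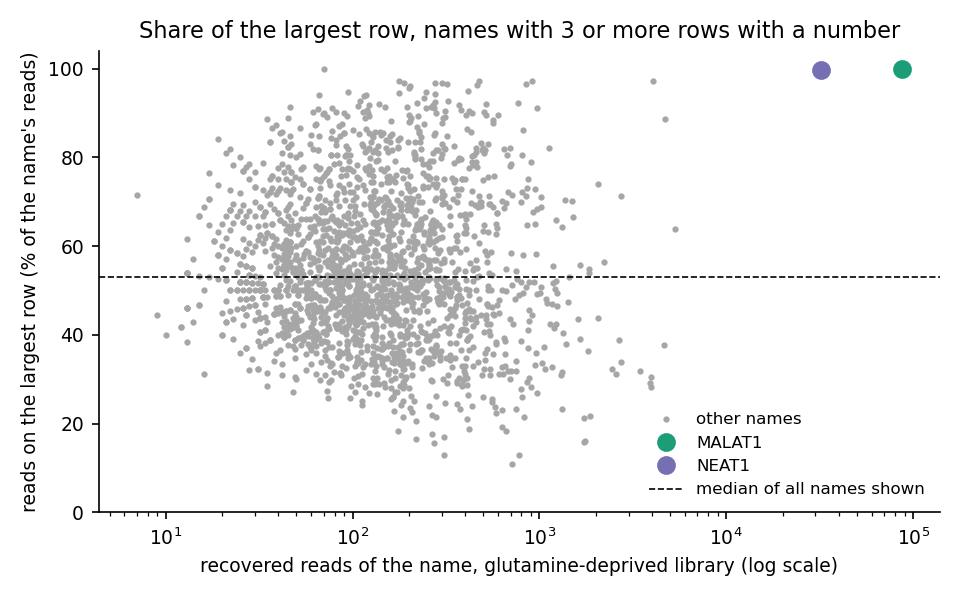
Percent of a name's reads on its largest row (vertical axis) against its recovered reads in the glutamine-deprived library (horizontal axis, log scale), 1 point for each of 2091 names with 3 or more rows with a number. MALAT1 and NEAT1 lie at the upper right, at 99.9% and 99.8%, and the dashed line is the median of 53.1%.

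Summed over rows, MALAT1 stood at 68578 in the glutamine-deprived library and 1308 in the glucose-deprived library, and NEAT1 at 25450 and 506. Both were higher in the glutamine-deprived library, at log2(value + 1) differences of 5.71 for MALAT1 (counting interval 5.62 to 5.80) and 5.65 for NEAT1 (5.51 to 5.80). A difference of 2-fold or more in that direction was shared by 97.4% of the 9253 names. Of these names, 9211 were above 0 in the glutamine-deprived library and 393 in the glucose-deprived library, so the 97.4% follows largely from listed zeros. Among the 351 names above 0 in both libraries, the difference was shared by 42.2%. The direction by itself thus says little about the pair. The size depended on the scale. With each library rescaled to 1000000, the log2 differences were 1.31 and 1.26. Of the 351 names, 5.98% were then 2-fold or more higher in the glutamine-deprived library, beside 96% of all names. That 96% again follows largely from listed zeros. As shares of recovered reads, MALAT1 differed 2.49-fold and NEAT1 2.39-fold between the libraries, with the glutamine-deprived library the higher in both cases. These shares and the rescaling use totals over rows with a number. The 79.7% of listed rows without a number are not in them, so the totals need not stand for library depth.

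The most abundant name, XLOC_220679, a locus without a gene symbol in the files, lowers every other share. It held 559463 of 1442570 recovered reads in the glutamine-deprived library and 5566 of 42827 in the glucose-deprived library. The shares are thus lowered more in the glutamine-deprived library, and leaving XLOC_220679 out widens the differences. Among the remaining reads MALAT1 held 9.82% (9.75 to 9.88%) in the glutamine-deprived library and 2.78% (2.62 to 2.95%) in the glucose-deprived library, a 3.53-fold difference. NEAT1 held 3.64% (3.60 to 3.68%) and 1.07% (0.974 to 1.18%) in the same order, a 3.39-fold difference. The intervals of the libraries do not overlap for either name. They hold counting error alone, and how many other names would also show no overlap was not counted, so this does not set the pair apart. In RNA from many cells, less of an RNA per cell and fewer cells that hold it cannot be told apart.

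By log2 difference, MALAT1 ranked 15 and NEAT1 17 among the 351 names above 0 in both libraries. Of the 187 with a value of at least 100 in the glucose-deprived library, a minimum chosen after the values were seen, XLOC_220679 led at 5.97, MALAT1 and NEAT1 came next, and IARS1, the cytosolic isoleucyl-tRNA synthetase, followed at 4.73. The names nearest to MALAT1 over the 2 libraries were EIF4G1, a translation initiation scaffold, at 5.68, ADARB2, an RNA-editing enzyme relative, at 5.55, XLOC_220679, ETFA, an electron transfer flavoprotein subunit, at 5.43, and the ribosomal protein gene RPL18 at 5.99. Those nearest to NEAT1 were the first 4 of these and IVD, a leucine breakdown enzyme, at 5.39. Likeness was measured as the absolute difference in log2 difference, from 0.03 to 0.32. EIF4G1 and RPL18 rested on 1 read each in the glucose-deprived library, and ETFA and IVD on 2 each, so only ADARB2, with 2456 reads in the glutamine-deprived library and 32 in the glucose-deprived library, and XLOC_220679, with 559463 and 5566, had more than 2.

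**Figure D3:**
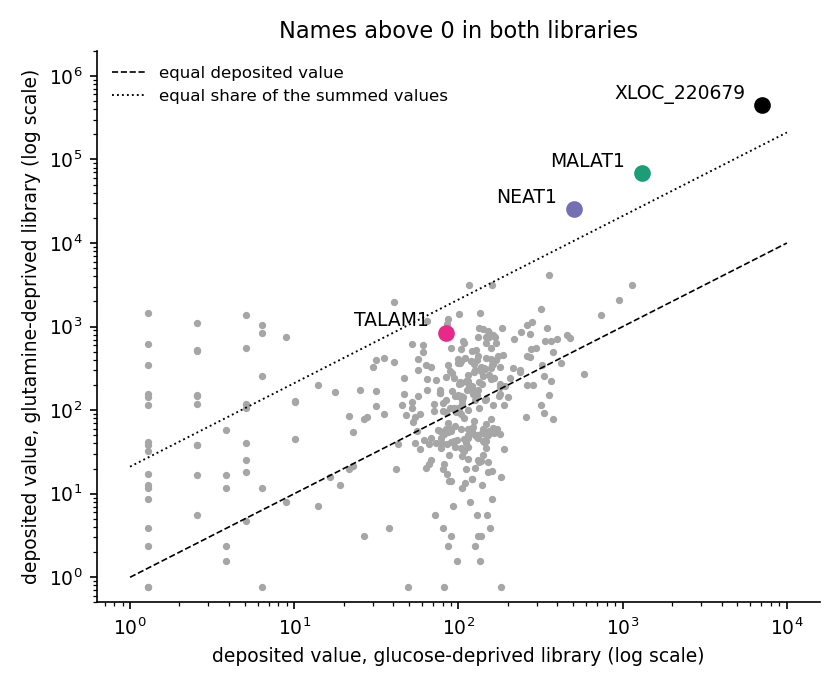
Deposited value in the glutamine-deprived library (vertical axis, log scale) against that in the glucose-deprived library (horizontal axis, log scale) for the 351 names above 0 in both. MALAT1, NEAT1 and XLOC_220679 lie above both the line of equal deposited values (dashed) and the line of equal share of the summed values (dotted), while TALAM1 lies between them.

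A ratio of reads within a library is free of any scale between libraries. The files' values are not divided by length and the length behind each row is not known, so such a ratio does not order the genes by level, but it can be set against itself in the other library. MALAT1 over NEAT1 was 2.69 (2.66 to 2.73) in the glutamine-deprived library and 2.59 (2.30 to 2.91) in the glucose-deprived library. These intervals overlap. XLOC_220679 over NEAT1 was 17.4 (17.2 to 17.6) in the glutamine-deprived library and 13.9 (12.6 to 15.4) in the glucose-deprived library, and these do not overlap. How many other pairs of names would show no overlap was not counted.

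The relation of MALAT1 to its antisense partner differed more between the libraries than its relation to NEAT1. TALAM1 is transcribed from the opposite strand over the MALAT1 locus, at chr11:65499312-65507432, and shares 7205 bases, or 82.1%, of the MALAT1 span. It had 1 row, with a value of 846 in the glutamine-deprived library and 83.5 in the glucose-deprived library, or 1069 and 66 reads. MALAT1 over TALAM1 was 81.1 (76.3 to 86.2) in the glutamine-deprived library and 15.7 (12.2 to 20.4) in the glucose-deprived library. NEAT1 over TALAM1 was 30.1 (28.3 to 32.0) and 6.06 (4.66 to 7.99) in the same order. Neither pair of intervals overlaps. The labels and headers do not state that counting used strand, and without strand the reads of MALAT1 and TALAM1 cannot be told apart where they overlap. TALAM1 itself had a log2 difference of 3.33 as deposited and -1.06 after rescaling, so its own direction changed with the scale. As deposited, MALAT1 stood at 5.71 and the median of the 351 names above 0 in both libraries at 0.61. Most of those names thus lay further from MALAT1 than TALAM1 did, and the shift was not particular to this pair.

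**Figure D4:**
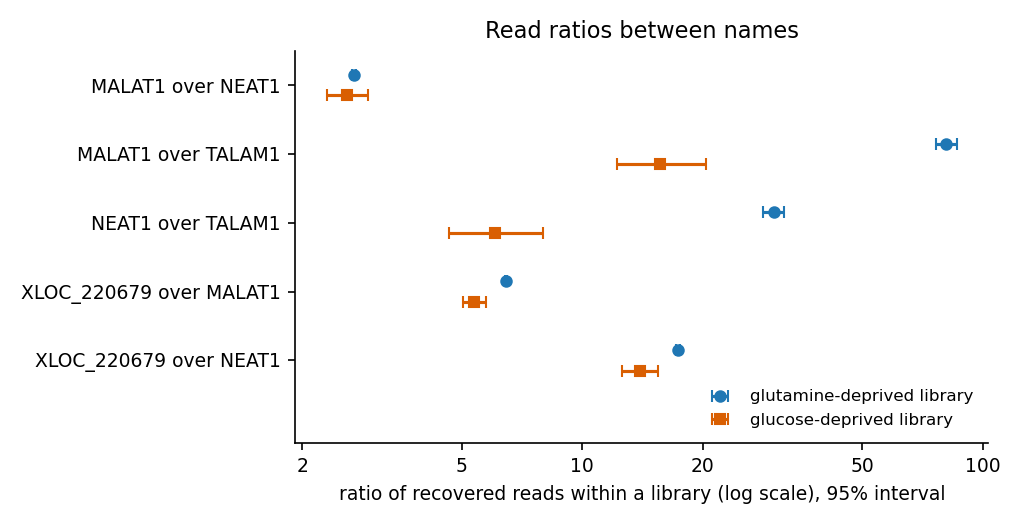
Ratio of recovered reads between 2 names within a library (horizontal axis, log scale), with exact 95% counting intervals as bars, for the glutamine-deprived library (circles) and the glucose-deprived library (squares). The ratio of MALAT1 to NEAT1 overlaps between the libraries at 2.69 and 2.59, while that of MALAT1 to TALAM1 is 81.1 and 15.7.

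Protein-coding genes next to the pair on chromosome 11 stood at a listed 0 in the glucose-deprived library. Of the 18 other neighbours on the list, 12 had a number, at gaps of up to 286 kb from MALAT1. They had values of 3.15 to 209 in the glutamine-deprived library, and 0 of the 12 were above 0 in the glucose-deprived library, which for so few names is close to the 4.25% of all names above 0 there. CAPN1, a calcium-activated protease gene, had the highest value, 209, followed by MAP3K11, a kinase of stress signalling, at 120, and LTBP3, a TGF-beta binding protein gene, at 84.6. SLC25A45, a mitochondrial carrier gene, stood at 54.6, and EHBP1L1 at 51.4.

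Values under the names of protein-coding genes are those of the transcript rows listed there and are not taken as messenger RNA levels. Of 35 paraspeckle proteins, 20 had a number. All 20 were above 0 in the glutamine-deprived library, as were 9211 of all 9253 names with a number, so this count says little about them. In the glucose-deprived library 4 were above 0, where 4.25% of all names were. Their median log2 difference was 4.57, beside 4.32 over all names. Both medians rest mainly on names at a listed 0 in the glucose-deprived library, so they follow the glutamine-deprived values and the pseudocount. Of the 20, 19 were 2-fold or more higher in the glutamine-deprived library and 1 in the glucose-deprived library, beside 97.4% and 1.42% of all names. MATR3, a nuclear matrix protein gene, stood at 715 in the glutamine-deprived library and 219 in the glucose-deprived library. EWSR1 stood at 399 and 129, and NONO, a core paraspeckle protein gene, at 308 and 144, in the same order. FAM98A was the 1 higher in the glucose-deprived library, at 23.7 in the glutamine-deprived library and 150 in the glucose-deprived library. After rescaling, these 4 had log2 differences from -7.00 for FAM98A to -2.69 for MATR3, on either side of the median of -3.77 over the 351 names above 0 in both libraries. The other 16, at a listed 0 in the glucose-deprived library, stayed positive after rescaling, which follows from that 0 and the pseudocount. Among those with a listed 0 in the glucose-deprived library, DAZAP1 stood in the other at 267, CIRBP at 133, SMARCA4 at 60.1 and HNRNPK at 54.5, while PSPC1, another core protein gene, chosen after its value was seen, stood at 20.5.

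For nuclear speckle proteins, 21 of 24 had a number, and the glucose-deprived library had 2 of them above 0, beside 4.25% of all names. These were SRSF4 at 351 in the glutamine-deprived library and 86.0 in the glucose-deprived library, and SRSF3 at 225 and 367 in the same order, both splicing factors of the SR family. After rescaling their log2 differences were -2.36 and -5.09, on either side of the same median of -3.77, and the other 19, at a listed 0 in the glucose-deprived library, were positive. The median log2 difference of the 21 was 5.93 as deposited, beside 4.32 over all names. With 19 of the 21 at a listed 0, this median too follows the glutamine-deprived values and does not measure a difference. SRRM2, a speckle scaffold gene, had a value of 384, RNPS1 286, SRSF11 216, LUC7L3 163 and RBM25 136 in the glutamine-deprived library, whereas the glucose-deprived library listed all 5 at 0. Of 16 genes for end processing and for binding the triple helix, 7 had a number, and the glucose-deprived library had 0 of them above 0, against the same 4.25%. ELAC2, the RNase Z that trims the tRNA-like RNA cut from MALAT1, led at 373 in the glutamine-deprived library, followed by CPSF1 at 57.6, RPP30, a subunit of RNase P, at 38.7, POP4 at 9.47 and RPP14 at 7.89. METTL16, a methyltransferase that binds the MALAT1 triple helix, also chosen so, stood at 1.56, or 2 reads. ALKBH5 itself stood at 11.8, or 15 reads, in the glutamine-deprived library, with a listed 0 in the other.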

How the data were processed

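Total RNA was depleted of ribosomal RNA and sequenced, per the labels' protocols, in 1 library per condition. Per the submitters' processing notes, HISAT2 2.0.5, StringTie and the build hg38 were used. The counter, annotation, strand setting and scaling are not stated in the labels or headers. Deposited values carry no unit in the file headers. Values under 1e-09 were set to 0, and the 73172 of 91835 rows without a number were left out. A line of value on reads was fitted up to 1000 reads (step 0.791 in the glutamine-deprived and 1.26 in the glucose-deprived library, offsets -0.018 and 0.022), and 100% of 18536 and 472 such values came within 0.1 of a whole read. Reads of larger rows extrapolate that line and are rounded. The deposited step ratio between libraries was 1.60, the read ratio 33.7; how the authors set the scale is not stated.

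Log2 differences are log2(value + 1) of name sums over names at 1 or more in either library, glutamine-deprived minus glucose-deprived. Shares have Wilson intervals and ratios exact conditional binomial intervals. Named genes were the pair, the 5 nearest names to each, the 3 names with the most rows (2 ways), and list members above 0 in both libraries plus up to 5 others by value; a few names are not reported here. Members and lists were chosen with earlier results of these data known, and likewise the 99% and 1000-read limits and the ratios to TALAM1, which were chosen after the values were seen. The RefSeq tables of GRCh38.p14 gave positions and sequences. Alternatives covered scaling, pseudocount, minimum and row choice. Python 3.11.15, NumPy 2.4.6, pandas 2.3.3 and SciPy 1.17.1 were used, and the calculations were tested on simulated data.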

Additional observations from a re-analysis of the deposited data

How the results depend on the processing

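No paired analysis was possible because each condition had 1 library. MALAT1 and NEAT1 stayed higher in the glutamine-deprived library under every scaling tried. Their log2 differences, 5.71 and 5.65 as deposited, became 1.31 and 1.26 with each library rescaled to 1000000, and 1.82 and 1.76 when rescaled without XLOC_220679. They were 5.10 and 5.04 centred on the median of names above 0 in both libraries, which was 0.61. In recovered reads without scaling, an alternative chosen after seeing the data, they were 6.39 and 6.33. Without the largest row they were 6.20 and 5.86, but those sums are at 0 in the glucose-deprived library and rest on the pseudocount. The scaling alternatives differ by their construction. Over rows above 0 in both libraries, the largest row's share in the glutamine-deprived library became 100% for both names, since 1 row of each is left. A pseudocount of 0.1 and shares of deposited values left the results within their counting intervals. Names at least 2-fold apart numbered 9139, against 7851 at a minimum of 5 and 9228 after rescaling. Depth is a limit on the minor rows, since the glucose-deprived library had 1035 MALAT1 and 400 NEAT1 reads. What a listed 0 stands for in that library was not tested.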

Other observations

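Most listed rows of the pair held no number: 14 of 17 for MALAT1 and 5 of 9 for NEAT1, beside 79.7% of all 91835 listed rows. Which transcripts these rows stand for is not given in the files.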
